A study of Mus musculus with 9 samples.

Results

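The dystrophin-glycoprotein complex is the protein assembly that ties the actin cytoskeleton of a muscle fibre, through its plasma membrane, to the surrounding basal lamina. The genes described here were its core members Dmd, Utrn, Dag1, Sgca, Sgcb, Sgcd, Sspn and Dtna, chosen by symbol, and each matched 1 Ensembl identifier, so that 8 of the 55471 gene identifiers in the count table were members. RNA of the gastrocnemius, a calf muscle, was sequenced from newborn mice at postnatal day 0 to 1, with 1 library per mouse. There were 5 Shank3Δ11(-/-) mice (KO1 to KO5), which lack exon 11 of the scaffold gene Shank3 in all cells and came from matings of heterozygous C57BL/6JRj mice, and 4 Shank3(+/+) mice (WT1 to WT4), with wildtype animals named as C57BL/6. The study left out KO2 and KO4 for too few reads, so tests were run on 3 against 4 mice (the 7 mice) and repeated on all 9. In the deposited counts, no mouse had a higher total than KO4. The labels name no transgene and no treatment.

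In muscle fibres dystrophin, the product of Dmd, binds filamentous actin at one end and beta-dystroglycan at the other. Alpha-dystroglycan, cut from the same Dag1 precursor, carries sugar chains that bind laminin, while the sarcoglycans and sarcospan form a subcomplex beside dystroglycan in the membrane and dystrobrevin docks syntrophins on the inner side. Utrophin is the autosomal relative of dystrophin, known for its broad presence along the fibre membrane before birth and its restriction to the neuromuscular and myotendinous junctions in adult fibres. Loss of dystrophin or of a sarcoglycan leads to muscular dystrophy.

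All 8 members were detected in all 9 mice, and none of them differed between the genotypes beyond the spread between mice. Library totals were 26444372 to 40471957 gene counts, and a single member in a single mouse had between 227 counts, for Sgcd, and 14902 counts, for Dag1. Values are given as normalised read counts, that is TMM-scaled CPM, or reads of a gene relative to the scaled library total, and as CPM per kilobase where different genes are compared. The summed level of 8 markers of skeletal muscle fibres (Acta1, Ckm, Mylpf, Tnnt3, Myh3, Myh8, Des and Actn2) was between 57428 and 65970 CPM in every mouse, and all 8 exceeded 1 CPM in each. Within that sum KO5 stood apart for embryonic myosin, Myh3, at 2095 CPM beside 4174 to 5787 CPM in the other mice, and was lowest for Actn2 at 1604 CPM. In whole muscle, fewer cells of a type and less RNA per cell cannot be told apart.

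Shank3 itself had 29.4, 31.0 and 34.4 CPM in KO1, KO3 and KO5, 25.8 and 35.1 CPM in KO2 and KO4, and 32.9, 32.9, 32.5 and 38.5 CPM in WT1 to WT4. These ranges overlapped, with a log2 fold change of -0.12 (SE 0.11, edgeR p = 0.308, exact permutation p = 0.343). The count covers the whole gene, so it does not check the loss of a single exon.

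Of the members, Dmd and Utrn are long relatives whose reads could be confused, so the stretch around the longest identical run of their coding sequences is shown. Dmd lies at chrX:82948870-85206141 on the plus strand and Utrn at chr10:12382188-12869365 on the minus strand (mm10, GENCODE M21). In the transcripts compared, coding sequence takes 11034 bases in Dmd and 10290 bases in Utrn, and their longest identical run is 25 bases, printed in capitals within 115 bases of each mRNA, 5′ to 3′. The Dmd stretch spans exons 67 and 68 of 79 (chrX:85110006-85110100 and chrX:85139328-85139347), and the Utrn stretch spans exons 62 and 63 of 74 (chr10:12441936-12442030 and chr10:12439774-12439793).
Dmd: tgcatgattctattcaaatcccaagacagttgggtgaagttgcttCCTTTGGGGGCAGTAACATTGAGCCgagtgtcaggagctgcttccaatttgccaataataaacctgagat
Utrn: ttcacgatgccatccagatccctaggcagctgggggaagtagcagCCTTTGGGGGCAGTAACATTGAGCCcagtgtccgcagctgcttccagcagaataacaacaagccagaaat
Of these 115 bases, 87 (75.7%) were identical. None of the 23877 different 50-base stretches of the Dmd transcripts occurred in a transcript of another gene, and 3 of 17140 did for Utrn, all shared with Ell2. No 50-base stretch of Dag1, Sgca, Sgcb or Sgcd was shared, and 0.467% of those of Sspn and 0.291% of those of Dtna were. The exons of Sspn overlapped the antisense gene Sspnos over 69 bases and those of Dtna overlapped the antisense gene Gm47898 over 90 bases. Those antisense genes had 110 and 55 counts over all 9 mice, and no source used here states whether strand was used in counting.

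The Dmd count is a sum over more than 1 start site. RefSeq places a second start at position 85048295 of chromosome X, 2099392 bases after the first and between exons 62 and 63, which opens short transcripts known to be used outside the muscle fibre. In GENCODE M21, 6 of the 14 Dmd transcripts, among them 2 of the 3 coding ones, begin close to this second start or further downstream. After the second start follow 17 exons, with 16.6% of the coding bases of the longest form. The 250 bases before each start are shown because the gene count cannot separate the output of these promoters (RefSeq, GRCm38.p6, plus strand, chrX:82948620-82948869 for the first and chrX:85048045-85048294 for the second). Capitals mark, on both strands, E-boxes (CANNTG) and a CArG box in the first, and GC boxes (GGGCGG) in the second, of which the last 2 overlap.
Dmd first start: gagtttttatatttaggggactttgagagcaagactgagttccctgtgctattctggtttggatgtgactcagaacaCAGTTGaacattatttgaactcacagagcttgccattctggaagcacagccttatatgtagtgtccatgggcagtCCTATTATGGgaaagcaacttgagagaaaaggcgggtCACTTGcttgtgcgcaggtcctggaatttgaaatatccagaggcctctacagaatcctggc
Dmd second start: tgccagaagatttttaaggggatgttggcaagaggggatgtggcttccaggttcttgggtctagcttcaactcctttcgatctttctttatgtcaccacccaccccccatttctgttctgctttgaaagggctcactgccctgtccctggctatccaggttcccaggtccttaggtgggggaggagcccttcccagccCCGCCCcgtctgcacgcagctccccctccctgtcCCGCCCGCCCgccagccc
The first window held 2 E-boxes and 1 CArG box and was 45.2% G and C, and the second held 3 GC boxes and was 60.0% G and C. Of 32851 RefSeq promoter windows of the same length, 66.2% held an E-box, 1.47% a CArG box and 32.7% a GC box. A match is a description of letters and was not tested as a binding site.

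Dag1, Sgcb, Sgca and Sspn stood above the intracellular linkers Utrn, Dmd and Dtna when levels were set per length, and the sarcoglycan Sgcd stood below them. Per kilobase of merged exon, the mean over the 9 mice was 62.7 ± 11.2 CPM (SD, n = 9) for Dag1, 44.1 ± 2.82 for Sgcb, 39.5 ± 3.17 for Sgca and 29.0 ± 4.51 for Sspn. Utrn followed with 5.25 ± 0.481, Dmd with 4.50 ± 0.448, Dtna with 4.08 ± 0.666 and Sgcd with 1.23 ± 0.197 CPM per kb. The lowest mouse for Sspn (24.3) lay above the highest for Utrn (5.93), and the lowest for Dtna (3.25) lay above the highest for Sgcd (1.63), so these were the only neighbours in the order whose mice did not overlap on this length. Dag1 exceeded Sgcb in 9 of 9 mice, Sgcb exceeded Sgca in 8, Sgca exceeded Sspn in 8, and Dmd exceeded Dtna in 6. Among the 3 sarcoglycan members, Sgcd was therefore the lowest on this scale, at 1.23 CPM per kb against 44.1 for Sgcb and 39.5 for Sgca. Set against all genes tested, Dag1, Sgca, Sgcb and Sspn lay between percentiles 90.8 and 95.7 of CPM per kb, Utrn, Dmd and Dtna between percentiles 54.2 and 60.4, and Sgcd at percentile 29.2.

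The length used decides the order of the lower members. The merged exons of Dtna add up to 16930 bases, against 6295 bases for its longest transcript, and those of Sgcd to 8257 against 4453 bases. The transcripts with the longest coding sequence are shorter still, at 3860 bases for Dtna and 1617 for Sgcd. Levels on those lengths, which would be higher, were not computed. Per kilobase of longest transcript the means were 11.0 CPM for Dtna, 7.26 for Utrn, 7.19 for Dmd and 2.28 for Sgcd, so Dtna moved above Utrn and Dmd in the order. Dag1 (70.4), Sgcb (47.2), Sgca (39.7) and Sspn (32.1) kept their ranks. The plot of level per length shows both scales.

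**Figure D1:**
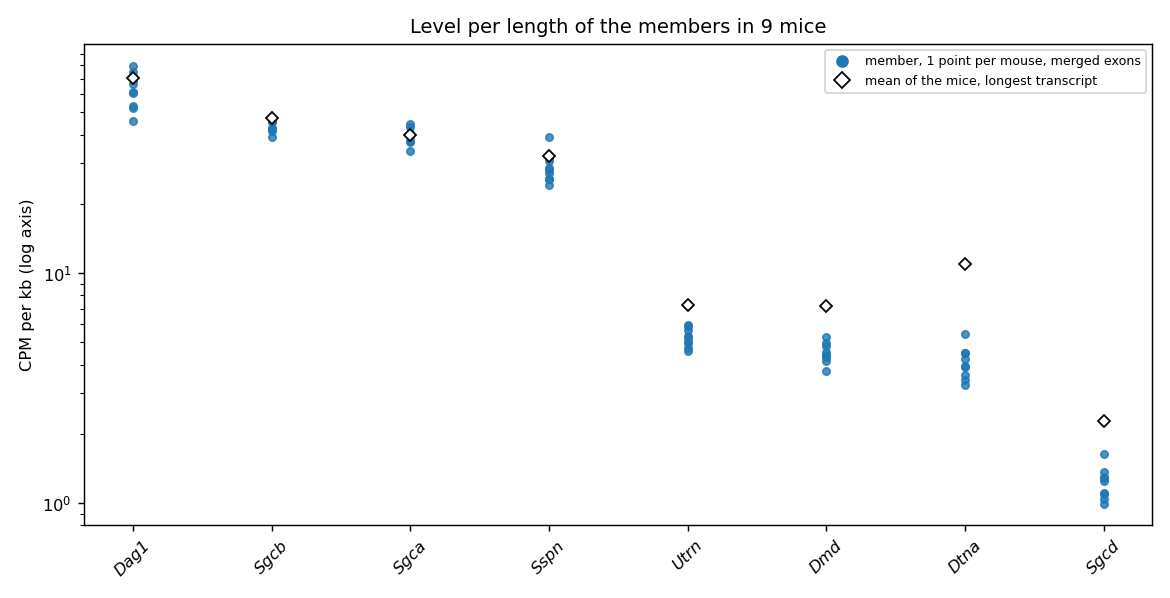
CPM per kilobase (log axis) of the members, 1 point per mouse for 9 mice on merged exon length, with the mean on longest transcript length as an open diamond. Dag1, Sgcb, Sgca and Sspn lie above 24 CPM per kb in every mouse, Utrn, Dmd and Dtna between 3.25 and 5.93 on merged exons, and Sgcd at or below 1.63.

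Utrophin and dystrophin transcripts were of like abundance in newborn muscle. In CPM, Dmd was the higher of the pair in every mouse, with a Utrn to Dmd ratio of 0.745 to 0.955. Per kilobase of merged exon the ratio was 1.17, 1.19, 1.20, 1.24 and 1.15 in KO1 to KO5 and 1.09, 1.04, 1.13 and 1.33 in WT1 to WT4. Utrn was thus above Dmd in 9 of 9 mice on this scale, by 1.17 ± 0.0846 times (SD, n = 9; exact 2-sided sign-flip permutation test, p = 0.00391, the smallest this test can give with 9 mice). Per kilobase of longest transcript the ratio was 1.01 ± 0.0732 (SD, n = 9), Utrn was above Dmd in 5 of 9 mice, and the same exact permutation test gave p = 0.664. The order of the pair therefore depended on the length assigned to each gene.

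The ratio did not separate the genotypes. On merged exons it was 1.17 ± 0.0265 in the 3 Shank3Δ11(-/-) mice and 1.15 ± 0.127 in the 4 Shank3(+/+) mice, a log2 difference of 0.04 (exact 2-sided permutation test, p = 0.743; the smallest p that 3 against 4 mice allow is 0.0286). With KO2 and KO4 it was 1.19 ± 0.0352 in 5 Shank3Δ11(-/-) mice, a log2 difference of 0.06 (exact permutation p = 0.460). All 5 Shank3Δ11(-/-) values lay between those of WT3 (1.13) and WT4 (1.33), and the lowest values were those of WT2 and WT1. Single Shank3(+/+) mice moved the difference in the 7 mice in both directions. Without WT2 it was -0.01 (exact permutation p = 1.00). Without WT4 it was 0.11 (exact permutation p = 0.10, the smallest that 3 against 3 mice allow), since every Shank3Δ11(-/-) ratio lay above those of WT1, WT2 and WT3, so the overlap of the groups rested on WT4.

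**Figure D2:**
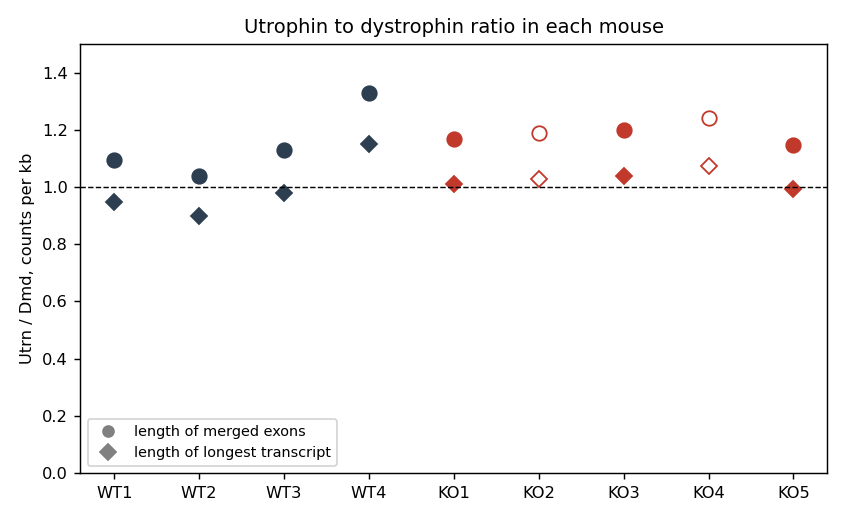
Ratio of Utrn to Dmd counts per kilobase in each mouse, on merged exon length (circles) and longest transcript length (diamonds), for Shank3(+/+) (dark) and Shank3Δ11(-/-) (red, open for KO2 and KO4), with a dashed line at 1. Circles run from 1.04 in WT2 to 1.33 in WT4, and the Shank3Δ11(-/-) circles from 1.15 to 1.24 lie within that range.

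The comparison of Shank3Δ11(-/-) with Shank3(+/+) asks whether genes of the complex change with the loss of the Shank3 exon. None of the 8 members had p below 0.05 by edgeR's quasi-likelihood test and none was called (p below 0.05 with a false discovery rate below 25%) in the 7 mice, where 2.08% of the 21809 genes tested had p below 0.05 and 0.0% were called. The same held in all 9 mice, where 2.03% of 21735 genes had p below 0.05 and 0.0% were called. DESeq2 and limma-voom in the 7 mice also left every member at p of 0.05 or above, while 1.8% of genes passed that level with DESeq2 (0.0275% called) and 1.95% with limma-voom (0.0% called). No member separated the genotypes without overlap, against 2.84% of genes in the 7 mice and 0.686% in the 9. In the 7 mice 3 members were higher and 5 lower in Shank3Δ11(-/-), with a median log2 fold change of -0.03 beside -0.01 over all genes tested, and a median size of 0.05 beside 0.10. Adjusted p-values by edgeR's quasi-likelihood test with Benjamini-Hochberg adjustment were 1.00 for each member. Standard errors, intervals and p-values rest on the spread between these mice.

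Among the intracellular linkers, Dmd was at 115, 98.6 and 108 CPM in KO1, KO3 and KO5, at 118 and 102 in KO2 and KO4, and at 103, 105, 125 and 89.6 in WT1 to WT4. The highest and the lowest mouse were both Shank3(+/+), and the genotype means of 107 ± 8.11 (SD, n = 3) and 106 ± 14.6 CPM (SD, n = 4) gave a log2 fold change of 0.01 (SE 0.12, 95% interval -0.26 to 0.28, edgeR p = 0.931, exact permutation p = 0.829). Dmd is X-linked, and the 4 mice with Xist, the RNA that coats the inactive X, at 619 CPM or above (KO3, KO5, WT3 and WT4) spanned 89.6 to 125 CPM of Dmd, around the range of 102 to 118 CPM in the other 5 mice, in which Xist was at most 3.23 CPM.

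Utrn was at 96.5, 85.1 and 89.0 CPM in KO1, KO3 and KO5, at 100 and 91.3 in KO2 and KO4, and at 81.2, 78.4, 101 and 85.5 in WT1 to WT4. The 2 lowest mice and the highest were Shank3(+/+), and the ranges overlapped. The means of 90.2 ± 5.79 (SD, n = 3) and 86.7 ± 10.3 CPM (SD, n = 4) gave a log2 fold change of 0.05 (SE 0.11, 95% interval -0.20 to 0.30, edgeR p = 0.677, exact permutation p = 0.600), and in 9 mice it was 0.09 (edgeR p = 0.350).

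Dtna encodes alpha-dystrobrevin, which binds dystrophin and syntrophins at the inner face of the membrane, and lies at chr18:23415135-23659715. It was at 66.2, 71.3 and 76.0 CPM in KO1, KO3 and KO5, at 55.0 and 66.5 in KO2 and KO4, and at 61.0, 57.8, 91.6 and 76.3 in WT1 to WT4. WT3 stood highest and KO2 lowest. The log2 fold change was -0.02 (SE 0.16, 95% interval -0.37 to 0.33, edgeR p = 0.907, exact permutation p = 0.943), between means of 71.2 ± 4.92 (SD, n = 3) and 71.7 ± 15.5 CPM (SD, n = 4).

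Dag1, the laminin receptor of the complex (chr9:108204634-108263958), had its highest and its lowest value in the mice that the study left out. It was at 424, 386 and 338 CPM in KO1, KO3 and KO5 and at 389, 332, 478 and 441 CPM in WT1 to WT4. KO2, at 506 CPM, was the highest of all 9 mice and KO4, at 291 CPM, the lowest, a ratio of 1.74 within 1 genotype. The means of 383 ± 43.0 (SD, n = 3) and 410 ± 63.4 CPM (SD, n = 4) gave a log2 fold change of -0.11 (SE 0.14, 95% interval -0.42 to 0.21, edgeR p = 0.462, exact permutation p = 0.571), and with KO2 and KO4 it was -0.08 (edgeR p = 0.635). KO4 also had the highest summed level of 5 fibroblast markers (14269 CPM, beside 5919 to 11090 in the other mice), of which the collagen gene Col1a1 made up 12987 CPM. Lum and Dcn were highest in KO4 too, while Pdgfra (121 CPM) and Dpt (102 CPM) were not. All of the 4 cartilage markers were highest in KO4 (a sum of 204 CPM, beside 28.9 to 65.8), and the part of these genes in its Dag1 level was not tested.

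The sarcoglycans, single-pass membrane proteins that stabilise dystroglycan, were the steadiest members with the exception of Sgcd. Sgcb (chr5:73632749-73647790) was at 184, 174 and 172 CPM in KO1, KO3 and KO5, at 186 and 168 in KO2 and KO4, and at 185, 191, 192 and 158 in WT1 to WT4. Its coefficient of variation over the 9 mice, 6.40%, was the lowest of the members, and the log2 fold change was -0.05 (SE 0.10, 95% interval -0.27 to 0.18, edgeR p = 0.664, exact permutation p = 0.714). Sgca (chr11:94962791-94976327), expressed in striated muscle, was at 74.6, 68.6 and 68.1 CPM in KO1, KO3 and KO5, at 70.5 and 59.0 in KO2 and KO4, and at 64.9, 69.1, 64.3 and 77.4 in WT1 to WT4. Its log2 fold change was 0.02 in the 7 mice (SE 0.11, 95% interval -0.21 to 0.26, edgeR p = 0.828, exact permutation p = 0.600) and -0.02 in the 9 (edgeR p = 0.875, exact permutation p = 0.841). Sgcd (chr11:46896253-47988969) was the lowest member, at 10.3, 9.0 and 8.62 CPM in KO1, KO3 and KO5, at 10.6 and 10.7 in KO2 and KO4, and at 9.15, 8.22, 13.5 and 11.3 in WT1 to WT4. In the 7 mice it had the largest fitted difference of the members, a log2 fold change of -0.19 (SE 0.18, 95% interval -0.59 to 0.22, edgeR p = 0.333, exact permutation p = 0.457). The fold change was -0.04 without WT3 and -0.09 in 9 mice, where those of Sspn (-0.11) and Dtna (-0.10) were larger in size. Fewer reads stand behind Sgcd, at 227 to 407 counts per mouse.

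Sspn encodes sarcospan, a membrane protein that is bound to the sarcoglycans (chr6:145931641-145965223). It was at 136, 153 and 128 CPM in KO1, KO3 and KO5, at 141 and 144 in KO2 and KO4, and at 129, 121, 196 and 158 in WT1 to WT4. Both the highest and the lowest mouse were Shank3(+/+), and the log2 fold change was -0.13 (SE 0.16, 95% interval -0.49 to 0.23, edgeR p = 0.449, exact permutation p = 0.686).

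**Figure D3:**
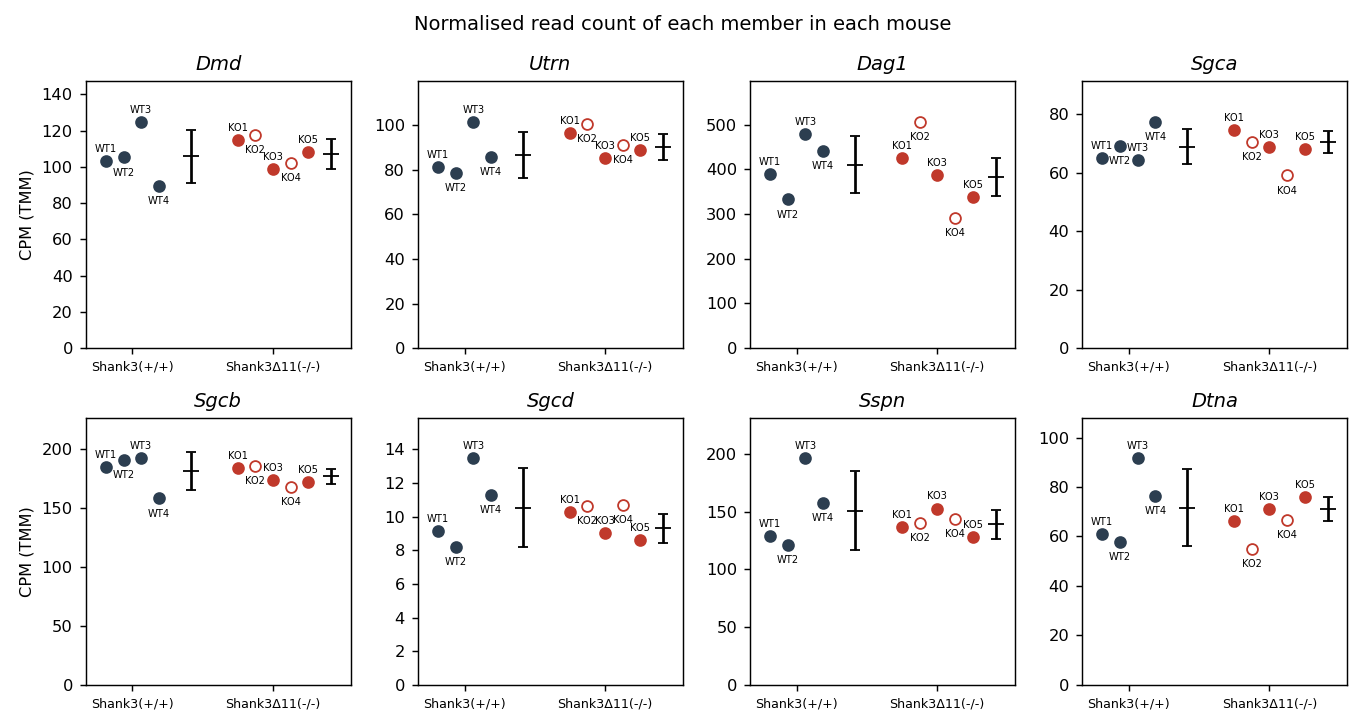
CPM of each member in each mouse (axes start at 0), for Shank3(+/+) (dark) and Shank3Δ11(-/-) (red, open circles for KO2 and KO4), with mean and SD of the 4 and of the 3 mice tested as black bars. The groups overlap in every panel, and WT3 is the highest mouse in 6 of the 8.

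**Figure D4:**
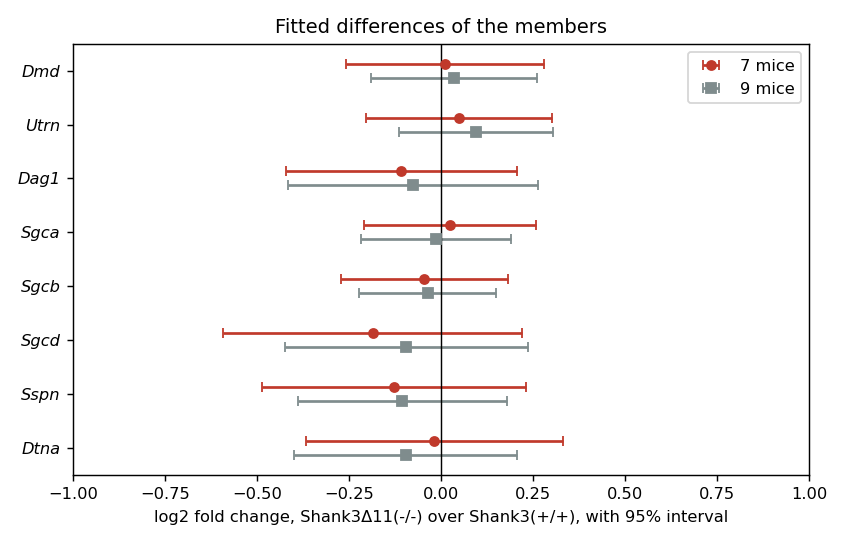
Fitted log2 fold change of each member, Shank3Δ11(-/-) over Shank3(+/+), with its 95% interval from edgeR in the 7 mice (red circles) and in all 9 (grey squares). Every interval spans 0, and the widest in the 7 mice, that of Sgcd, runs from -0.59 to 0.22.

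A single Shank3(+/+) mouse had high values across the complex. WT3 was the highest of the 9 mice for Dmd, Utrn, Sgcb, Sgcd, Sspn and Dtna, 6 of the 8 members, while it was the highest mouse for 11.1% of all genes tested. Its median log2 deviation from the mean of the 9 mice was 0.26 over the members, beside 0.00326 over all genes tested, and in Sspn the deviation reached 0.45. WT2 was the lowest mouse for Utrn, Sgcd and Sspn, with a median deviation of -0.22 over the members. The fold changes of Sspn and Dtna turned with WT3: without it they were 0.03 and 0.13, and neither passed the test. No Shank3Δ11(-/-) mouse was the highest for more than 1 member, and the map of deviations shows each mouse's place in each member.

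**Figure D5:**
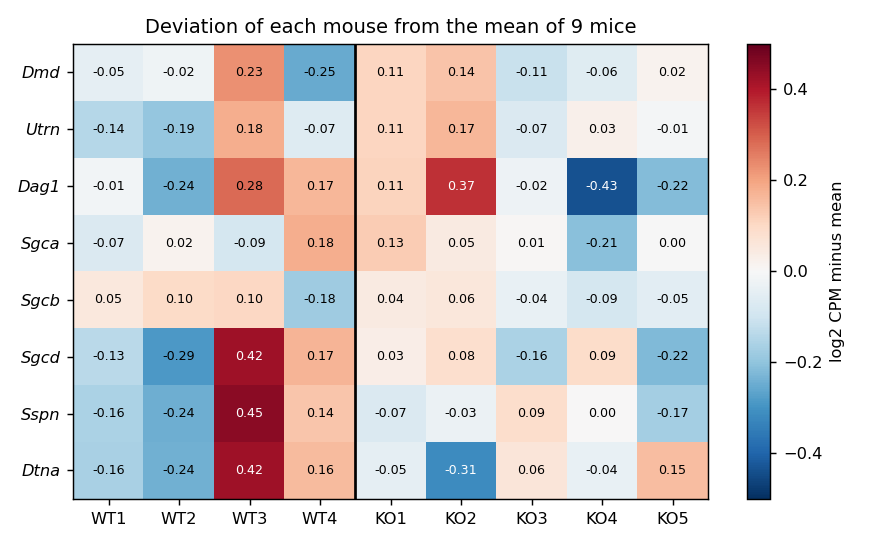
Deviation of each mouse's log2 CPM from the mean of the 9 mice (colour and printed value) for each member, Shank3(+/+) mice on the left of the black line and Shank3Δ11(-/-) mice on the right. WT3 is above the mean for 7 of 8 members, and the largest deviations are 0.45 for Sspn in WT3 and -0.43 for Dag1 in KO4.

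By the similarity of log2 CPM over the 9 mice, the 5 genes most like Dmd among 21734 were AC144860.3 (Pearson r = 0.962), Mtus1 (0.961), Usp38 (0.948), Mpp5 (0.938) and Zc3h12c (0.933). Those most like Utrn were Lsm11 (0.898), 6530409C15Rik (0.892), Gpr176 (0.875), Tnfrsf14 (0.870) and Gm11258 (0.862). The nearest member to Dmd was Sgcb (r = 0.787, rank 211) and the nearest to Utrn was Sgcd (r = 0.734, rank 105), and between Dmd and Utrn r was 0.72. These are descriptions over 9 mice that share their library scaling, both genotypes included, and AC144860.3, 6530409C15Rik, Gpr176, Tnfrsf14 and Gm11258 had mean levels below 1 CPM.

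The other genes of the complex and its pathway were taken from 8 lists with 59 genes, of which 56 passed the filter on low counts in the 7 mice. Of these, 20 were higher and 36 lower in Shank3Δ11(-/-), with a median log2 fold change of -0.04 beside -0.01 over all genes, and 0 had p below 0.05 (2.08% of all genes did). Of the genes that bind or extend the membrane core, Sgce, a sarcoglycan which many tissues express, had a log2 fold change of 0.05 with SE 0.11. Sgcz, with 11 counts in all, was not tested. The other dystrophin relatives counted 1 higher and 1 lower (Drp2, log2 fold change 0.13 with SE 0.13, and Dtnb, or beta-dystrobrevin, -0.17 with SE 0.15), and Dytn was at 0 in all mice. The syntrophins, adaptors for signalling proteins, counted 3 higher and 1 lower of 4 tested (median log2 fold change 0.11, Sntg1 not tested), and Sntb1, at 22.7 ± 3.52 CPM per kb (SD, n = 9), had a log2 fold change of -0.04. Signalling and channel partners counted 3 higher and 4 lower (median -0.05), with caveolin-3 (Cav3) at 184 ± 19.5 CPM per kb and -0.08, and the adaptor Grb2 at 30.0 ± 1.10 CPM per kb and -0.05.

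Enzymes that build the sugar chains of alpha-dystroglycan counted 8 higher and 9 lower of 17, with a median log2 fold change of -0.00079. Per kilobase of merged exon the highest were Dpm3 (12.1 ± 2.75 CPM per kb, log2 fold change -0.10) and Dpm2 (9.61 ± 0.743), both subunits of dolichol-phosphate-mannose synthase, with Pomgnt1 close to Dpm2 at 9.54. Per kilobase of longest transcript Pomgnt1 was the highest, at 15.1 beside 13.5 for Dpm3 and 13.4 for Dpm2. Dpm2 was at 18.9, 19.0, 18.5, 21.8 and 20.7 CPM in KO1 to KO5 and at 17.1, 18.4, 17.7 and 18.4 CPM in WT1 to WT4. Every Shank3Δ11(-/-) mouse was thus above every Shank3(+/+) mouse, as for 1.54% of all genes in the 7 mice and 0.322% in the 9. The difference was small, at a log2 fold change of 0.11 with an SE of 0.11, and Dpm2 had an adjusted p of 1.00 by edgeR's quasi-likelihood test with Benjamini-Hochberg adjustment. Dpm2 was the only one of the 56 partners tested whose groups did not overlap in either direction, beside 2.84% of all genes in the 7 mice and 0.686% in the 9.

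On the outer side, the matrix ligands counted 2 higher and 9 lower of 11 (median log2 fold change -0.08), with the proteoglycans Bgn at 98.6 ± 25.3 CPM per kb (log2 fold change 0.01) and Hspg2 at 47.0 ± 2.37 (0.02). The parallel laminin receptor of muscle, integrin alpha-7 beta-1, had both subunits lower (Itga7, log2 fold change -0.08 with SE 0.10, and Itgb1, -0.04 with SE 0.12), neither past the test. On the inner side, the cytoskeletal linkers counted 2 higher and 9 lower of 11 (median -0.04), and gamma-actin (Actg1), which dystrophin binds, was at 130 ± 13.7 CPM per kb with a log2 fold change of -0.03. Actb, beta-actin, was the only partner with p below 0.05 in either set of mice. It was at 956, 1406 and 1519 CPM in KO1, KO3 and KO5, at 1169 and 1748 in KO2 and KO4, and at 938, 1009, 967 and 1123 in WT1 to WT4. The log2 fold change was 0.35 in the 7 mice (SE 0.16, edgeR p = 0.0535, exact permutation p = 0.200) and 0.43 in the 9 (edgeR p = 0.0166, exact permutation p = 0.0794). In the 9 mice 1 of 55 partners tested had edgeR p below 0.05, beside 2.03% of all genes, and none was called. Actb is used by nearly all cells, and KO4, its highest mouse, was also highest in Col1a1 and in the cartilage markers, as given above, while KO5, the next, had 5 adipocyte markers at a summed 285 CPM, beside 25.9 or less elsewhere, and 5 Schwann cell markers at 332 CPM, beside 94.2 to 169. KO3 and KO2 were also above every Shank3(+/+) mouse in Actb, with sums for these lists within the range of the other mice. The fibroblast, cartilage, adipocyte and Schwann cell sums were 9108, 49.5, 0.535 and 110 CPM in KO3. In KO2 they were 7639, 40.0, 6.97 and 152 CPM. KO1, the lowest Shank3Δ11(-/-) mouse in Actb, had the highest adipocyte and Schwann cell sums after KO5, at 25.9 and 169 CPM. The part of these markers in the Actb level was not tested.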

How the data were processed

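The authors aligned reads to mm10 with HISAT2, kept concordant pairs, and deposited raw counts per Ensembl gene from featureCounts (Subread). Annotation release, strandedness and the use of multi-mapping reads were not given in the sources used here. Library totals ranged from 26444372 to 40471957 counts. Intervals from the fit rest on 7 or 9 mice.

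Counts were filtered with filterByExpr (minimum count 10, minimum total 15), scaled by TMM and tested with edgeR 4.0.16 in R 4.3.3 (robust quasi-likelihood, Benjamini-Hochberg over all genes tested). CPM per mouse used TMM factors over 9 mice, and lengths came from GENCODE M21. Ratios and log2 CPM were compared by exact 2-sided permutation tests. Alternatives were all 9 mice, other normalizations, DESeq2 1.42.0, limma-voom (limma 3.58.1), no filter, a replicate block, a Y-linked covariate and leaving out each mouse. Besides the members, named genes were those of each list with p below 0.05 in the 7 mice or, where fewer than 2 passed, the 2 highest per kb, the 5 genes most like Dmd and Utrn, Shank3 and markers. Results for some partner genes are not reported here. Members and lists were chosen with earlier results of these data known. Actb and Dpm2 fall under this rule and were described at length after their values were seen. Figures used matplotlib 3.10.9 in Python 3.11.15.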

Additional observations from a re-analysis of the deposited data

Results flagged for a closer look

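In 70 groups of 4 or 5 mice (members, the Utrn to Dmd ratio, named partners, Shank3 and marker lists), the mouse at one end was compared with its group by Dixon's test, by which chance picks out about 1 in 20 groups. No member had such a mouse. Shank3 in WT4 was at 38.5 CPM, beside 32.5 to 32.9 CPM in the other Shank3(+/+) mice. The summed level of fibroblast markers in KO4 was 14269 CPM, beside 7639 to 9237 in the other Shank3Δ11(-/-) mice, and Col1a1 made up 12987 CPM of it. Cartilage markers in KO4 summed to 204 CPM, beside 28.9 to 60.1. Adipocyte markers in KO5 summed to 285 CPM, beside 0.535 to 25.9. Smooth muscle and pericyte markers in KO5 summed to 471 CPM, beside 346 to 376 in the other Shank3Δ11(-/-) mice and up to 399 in Shank3(+/+). Rgs5 made up 246 CPM of it, and Notch3 and Kcnj8 were not highest in KO5.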

How the results depend on the processing

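The count of members called, and of members at p below 0.05, was 0 under each of the 17 alternatives. Over 136 alternative fold changes of members the lowest p was 0.139 and the lowest adjusted p was 0.998 (edgeR, DESeq2 or limma-voom). Of these, 121 kept their sign and 15 turned, and the cause was not tested. Leaving out each of the 7 mice gave log2 fold changes from -0.057 to 0.11 for Dmd, -0.00022 to 0.14 for Utrn, -0.20 to -0.02 for Dag1, -0.018 to 0.089 for Sgca, -0.10 to -0.01 for Sgcb, -0.29 to -0.04 for Sgcd, -0.22 to 0.032 for Sspn and -0.11 to 0.13 for Dtna. The mice whose removal turned the sign were KO1 and WT4 for Dmd, KO1 for Utrn, KO1 and WT1 for Sgca, WT3 for Sspn, and KO1, WT3 and WT4 for Dtna. Sgca was at -0.015 in all 9 mice and at -0.012 in them with the Y-linked level as a covariate, added after seeing the data, and Dtna was at 0.0047 with limma-voom. The labels do not say what the replicate number marks. The deviations of same-numbered mice correlated at 0.37, 0.05, 0.36 and 0.10, the first and the third above every pair of unlike numbers (-0.44 to 0.28). KO4 correlated best with WT4, but KO2, which is not among the 7 mice, correlated best with WT1 (0.27). The mice were therefore not taken as paired, which the 7 mice alone would not settle. Among them only KO1 with WT1 and KO3 with WT3 share a number, so the replicate block in the 7 mice rests on these pairs. Used as a block, the replicate number gave -0.10 for Dmd and -0.0074 for Utrn in the 7 mice and -0.016 for Sgca in the 9. It also gave a log2 difference in the Utrn to Dmd ratio of 0.09 in the 7. That difference ran from -0.0098 to 0.11 with a mouse left out, and Utrn over Dmd within mice from 0.20 to 0.25. Within mice, Utrn over Dmd was 0.015 (exact permutation p = 0.664) per longest transcript, against 0.22 per merged exon. Per longest transcript the levels also moved beyond 1 SD for Dmd, Utrn, Sgcb, Sgcd and Dtna. Sgcd had the fewest reads, 227 to 407 counts per mouse.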
